A study of Homo sapiens with 32 samples.

Results

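The genes described here are 34 heat shock and unfolded protein response genes of THP-1 cells, a human monocytic leukaemia line. They were chosen by gene name: every probe of the array whose platform symbol was one of the 34 was taken, and the brightest probe on average stood for its gene. Of the 34, 33 had a probe, with 41 probes in all; HERPUD1, an endoplasmic reticulum (ER) degradation factor, had none under that symbol and was not analysed here. PDIA3, an ER disulfide isomerase, had 1 probe, which lay below background on all 32 arrays, from -11.2 to 39.9 intensity units, and was not tested. The other 32 genes were read from a fit over 18388 probes, in which 13386 of 16920 genes were represented by a tested probe.

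The series asked how LPS and TGFβ1 signalling act on these cells when both are active. LPS comes from the outer membrane of bacteria and is sensed by TLR4, and TGFβ1 is a cytokine that acts through SMAD proteins. Before treatment the cells of all groups were kept overnight in low-serum medium, and the culture medium held 2-mercaptoethanol, a reducing agent. There were 4 groups of 8 arrays each, all taken after 24 h: the PBS control, 100 ng/ml LPS, 1 ng/ml TGFβ1, and LPS at 100 ng/ml with TGFβ1 at 1 ng/ml. Every group is the same line, and the labels do not say whether separate cultures lie behind the arrays. The p-values therefore measure no more than the array-to-array spread, which may be only technical.

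The unfolded protein response is set off when unfolded proteins gather in the ER. The sensor IRE1 splices XBP1 mRNA into the form that encodes an active transcription factor, ATF6 is cut free from its membrane to act as one, and the kinase PERK phosphorylates eIF2α, which slows translation and lets ATF4 be made. XBP1 and ATF6 raise ER chaperones, folding enzymes and degradation factors; ATF4 raises genes of amino acid supply and of the integrated stress response, among them DDIT3, TRIB3, CHAC1, ASNS and PPP1R15A. The cytosolic heat shock response is a separate pathway, in which HSF1 raises HSP70, HSP90 and their partners.

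The promoters of some ER chaperones and of some ATF4 targets carry different short elements, so the sites found in the members are shown here and referred to with the measurements. The 250 bases before each RefSeq gene start (GRCh38.p14) were searched on both strands, for 32 of the 34 members with an entry and 27305 promoters in all. The ER stress response element (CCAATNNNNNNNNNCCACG) was found in 6 members and in 22 promoters in all, or 0.0806%; the element was defined on promoters of this kind, HSPA5 among them, so the count is no independent finding. The sites below are turned so that the element reads forward, with 5 flanking bases on each side and the fixed letters of the element in capitals.

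HSPA5, chr9:125241386-125241414: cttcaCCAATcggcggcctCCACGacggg
HSP90B1 first site, chr12:103930211-103930239: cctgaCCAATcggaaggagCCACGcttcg
HSP90B1 second site, chr12:103930316-103930344: acccaCCAATcgcgccgcaCCACGcaccc
CRELD2, chr22:49918549-49918577: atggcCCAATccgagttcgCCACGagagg
CALR, chr19:12938379-12938407: accgaCCAATgatggtcgaCCACGcgtgg
CANX, chr5:179698773-179698801: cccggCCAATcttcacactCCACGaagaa
XBP1, chr22:28800598-28800626: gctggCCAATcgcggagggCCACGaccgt

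The site of HSPA5 lay 66 to 48 bases before the gene start and that of XBP1 52 to 34 bases before it. Of the sites of these 6 genes, those of HSPA5, CANX and XBP1 and the first of HSP90B1 read in the direction of the gene. The other 3 read against it. HYOU1 held none; its window held the shorter XBP1 core TGACGTG, found in 1.71% of all promoters, 188 to 182 bases before the start at chr11:119057382-119057398: ccccgTGACGTGgtcca. No other member's window held that core.

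The C/EBP-ATF response element TGATGNAA, bound by ATF4 with C/EBP proteins, was found in 3 members, ASNS, CHAC1 and HERPUD1, and in 3.19% of all promoters. The sites of the 2 measured genes are these, with the fixed letters in capitals.

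ASNS, chr7:97872464-97872481: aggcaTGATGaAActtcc
CHAC1, chr15:40953257-40953274: aggagTGATGcAAcggca

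In ASNS the element lay 68 to 61 bases before the start, and the whole window, chr7:97872409-97872658 on the minus strand, is printed because ASNS had the largest difference in LPS effect between chips 2 and 3, described at the end: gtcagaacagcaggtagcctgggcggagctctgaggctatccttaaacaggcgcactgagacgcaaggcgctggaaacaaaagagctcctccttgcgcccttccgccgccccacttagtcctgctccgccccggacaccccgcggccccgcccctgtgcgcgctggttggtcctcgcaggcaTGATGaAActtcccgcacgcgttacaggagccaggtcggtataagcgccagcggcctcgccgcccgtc. TRIB3, PPP1R15A and DDIT3 had no match to these letters in their 250 bases. The heat shock element (GAANNTTCNNGAA or TTCNNGAANNTTC) was found in 1 member, HSPA8, and in 0.439% of all promoters. Only exact matches were counted, so elements that differ from these letters would be missed. The 250-base window of HSPA5, chr9:125241344-125241593 on the minus strand, is given as the model ER chaperone promoter: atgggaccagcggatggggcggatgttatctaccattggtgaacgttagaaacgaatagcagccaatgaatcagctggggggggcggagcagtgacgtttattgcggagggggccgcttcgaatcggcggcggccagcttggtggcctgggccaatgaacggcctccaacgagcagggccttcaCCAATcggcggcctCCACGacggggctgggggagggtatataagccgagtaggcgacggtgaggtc.

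Between 12035 and 13263 probes per array were above background. Of 9 monocyte markers with a probe, 8 were above background on all 32 arrays; MPO was above it on 17, among them all 8 PBS arrays. The 4 T cell markers and the 3 erythroid and platelet markers were below it on every array. CDH1 (17 arrays), DCN (16), CD79A (15) and CD79B (31) were above it, while the other epithelial, fibroblast and B cell markers lay near or below it. The summed monocyte markers were 12949 to 26915 intensity units with PBS, 47022 to 59111 with LPS, 26140 to 37867 with TGFβ1 and 45179 to 54185 with both, so marker levels moved with the treatments; their part in the results below was not tested. In such bulk RNA, fewer cells with a transcript and less of it per cell cannot be told apart. The arrays fell into sets of 14 (set 1) and 18 (set 2) by the sign of the leading component of the residuals (42.3% of their variance). Set 1 held 3 PBS, 3 TGFβ1, 4 LPS and 4 LPS+TGFβ1 arrays. All arrays of chip 2 were in set 1 and all of chip 3 in set 2, while chips 1 and 4 held both. PBS replicate 8 stood apart on the second component. PBS, LPS and TGFβ1 arrays kept fixed positions on the chips, so position cannot be told apart from treatment; the positions of 4 LPS+TGFβ1 arrays are not known, because their labels repeat those of TGFβ1 arrays.

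**Figure D1:**
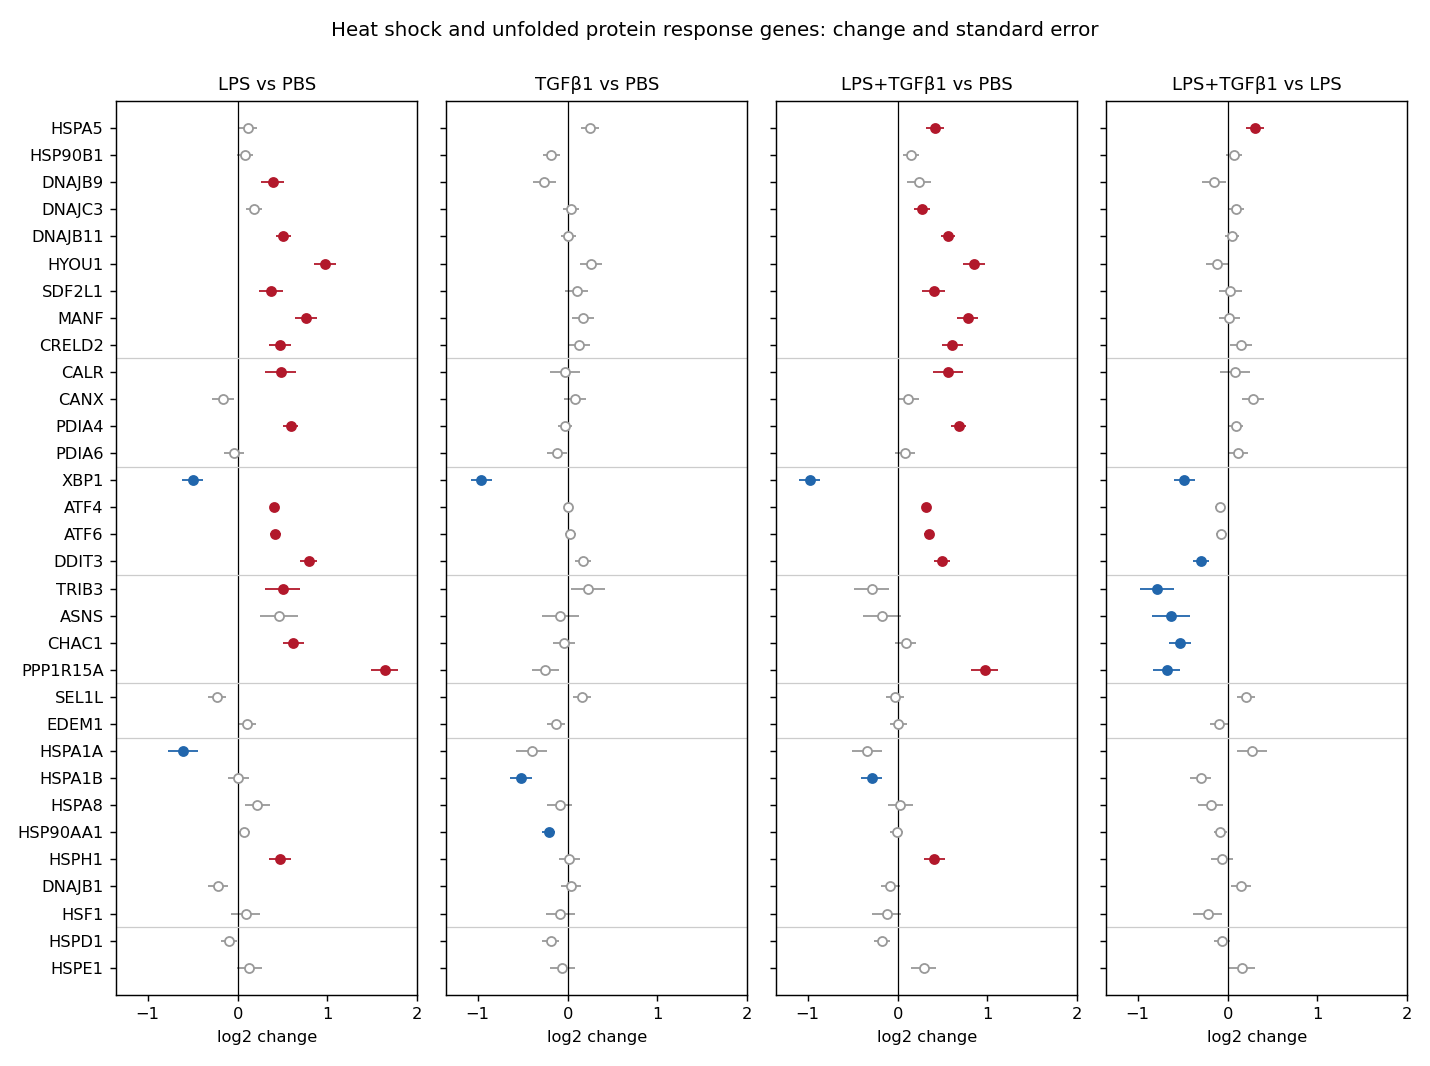
Points give the log2 change of each of the 32 tested genes and bars its standard error (8 arrays per group); panels are comparisons and grey lines part the role groups. Filled red points rose and filled blue points fell at an adjusted p under 0.05, and open points did not pass. PPP1R15A rose most with LPS (1.64), XBP1 fell in all 4 panels, and the 4 genes from TRIB3 to PPP1R15A fell when TGFβ1 was added to LPS.

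With LPS alone, most ER chaperones, the stress factors ATF4 (on its brightest probe), ATF6 and DDIT3, and PPP1R15A rose, while XBP1 and HSPA1A fell. Of the 32 genes, 15 rose and 2 fell (limma, Benjamini-Hochberg adjusted p under 0.05 over all probes), against a background in which 44.4% of 13386 genes were called, 21.8% higher and 22.7% lower. The members' median log2 change was 0.29 and that of all genes 0.04. With every array brought to 1 median 10 rose and 3 fell, and after quantile normalization 12 rose and 6 fell.

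Of the 9 ER chaperones and cochaperones, 6 rose with LPS. HYOU1, an HSP70-like exchange factor of the ER, is given in full, chosen after its values were seen, as the chaperone with the largest change. It measured 445 to 872 intensity units (median 584) on the PBS arrays and 975 to 1437 (median 1191) on the LPS arrays. The ranges did not overlap, and the log2 change was 0.97 ± 0.12 (SE, n = 8 per group, limma adjusted p = 3.05e-08), a 1.96-fold rise. MANF, a secreted ER stress factor, rose by 0.76 ± 0.12 from a median of 3387 to one of 5414. DNAJB11, an ER cochaperone of HSPA5, rose by 0.51, CRELD2 by 0.47, DNAJB9 by 0.39 and SDF2L1 by 0.37. That of DNAJB9 did not pass with every array brought to 1 median (0.26, limma adjusted p = 0.197). The rises of CRELD2, SDF2L1 and CALR (0.48) did not pass without chip 2, where they were 0.32, 0.31 and 0.38, nor with array weights. Those of SDF2L1 and CALR were also lost without chip 1, without PBS replicate 8 and under both other scalings, down to 0.06 for SDF2L1 and 0.11 for CALR.

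The most studied ER chaperone did not pass. HSPA5 (BiP), the HSP70 of the ER and the keeper of the 3 sensors, measured 575 to 1077 units (median 962) with PBS and 823 to 973 (median 919) with LPS. Those ranges overlapped entirely, and the change was 0.12 with a 95% interval of -0.09 to 0.32 (limma adjusted p = 0.383). HSP90B1 (GRP94) changed by 0.08 and DNAJC3 by 0.18, neither past the threshold. Among lectin chaperones and isomerases, PDIA4 rose by 0.59 ± 0.08 and CALR by 0.48, whereas CANX (-0.16) and PDIA6 (-0.04) did not pass. PDIA4 was dim, with medians of 84.6 units under PBS and 148 under LPS, and its ranges did not overlap. Of the 6 genes whose promoters hold the ER stress response element printed above, CRELD2 and CALR rose, XBP1 fell and HSPA5, HSP90B1 and CANX did not pass. Neither degradation factor passed, SEL1L at -0.23 (adjusted p = 0.0654) and EDEM1 at 0.11; SEL1L passed with chip as a block (adjusted p = 0.0306).

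**Figure D2:**
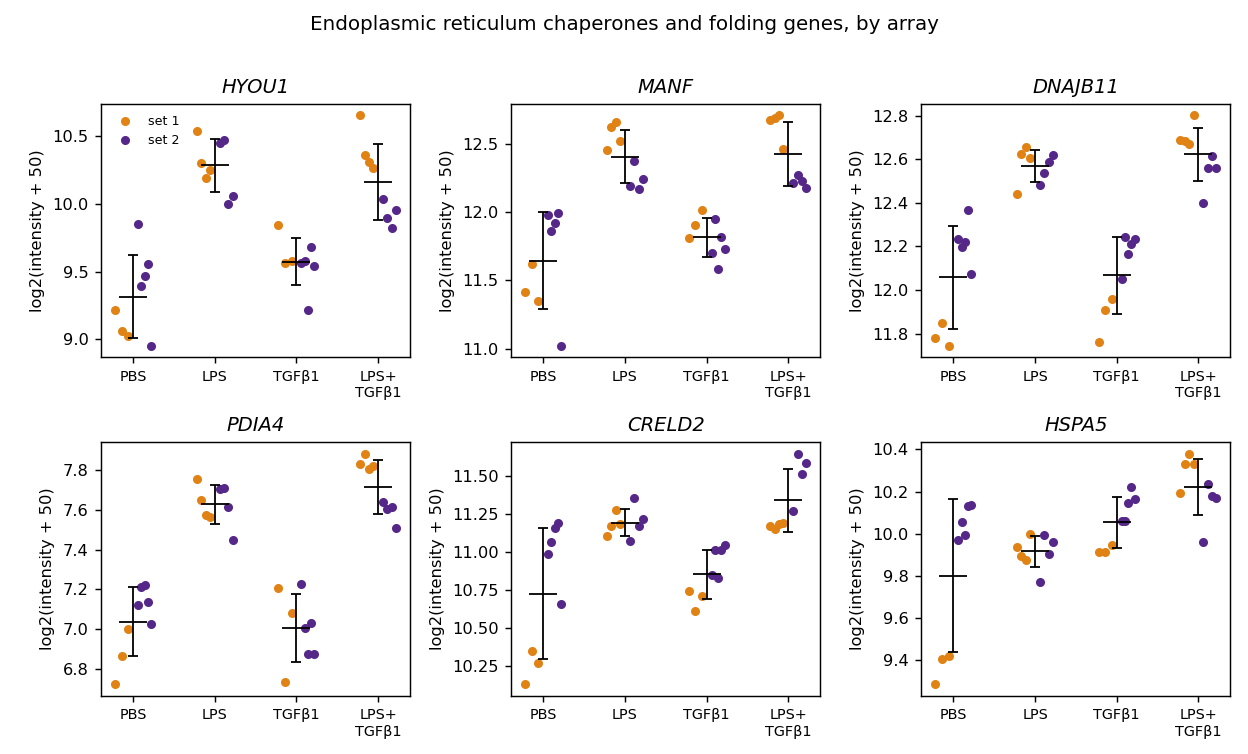
Each point is 1 array on a log2(intensity + 50) axis, by group, in orange for set 1 and purple for set 2; bars give the mean and SD of 8 arrays. HYOU1, MANF, DNAJB11 and PDIA4 on all LPS arrays lay above all PBS arrays, while the 3 set 1 PBS arrays of HSPA5 (575 to 636 units) lay below every other array of that gene.

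All 4 transcription factors were called with LPS. ATF4 measured 11114 to 11829 units (median 11399) with PBS and 13917 to 16414 (median 15186) with LPS. These did not overlap, and the change was 0.41 ± 0.05 (limma adjusted p = 5.13e-08). A second ATF4 probe rose by 0.40, but the dimmest of the 3 was at -0.43 (limma adjusted p = 0.0517). That dimmest probe was negative on all 4 chips and passed as lower with the chip as a block (limma adjusted p = 0.0156). The mean over the 3 probes was 0.13 and did not pass (limma adjusted p = 0.24). ATF6 rose by 0.42 ± 0.06. DDIT3 (CHOP), the stress factor downstream of ATF4, measured 298 to 440 units (median 397) with PBS. With LPS its median was 696 and its highest array 888. Every LPS array lay above the PBS range, with a log2 change of 0.79 ± 0.09.

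XBP1 fell. It measured 6116 to 6985 units (median 6478) with PBS and 3704 to 6454 (median 4441) with LPS, and fell by 0.50 ± 0.12 on the log2 scale (limma adjusted p = 0.000628). The 2 groups overlapped: the 4 LPS arrays of set 1 spanned 4935 to 6454 and those of set 2 3704 to 3947. A second XBP1 probe gave -0.47. Whether these probes separate spliced from unspliced XBP1 mRNA was not tested.

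In the ATF4 branch, PPP1R15A (GADD34), the phosphatase subunit that reverses eIF2α phosphorylation, had the largest change of all 32 genes in this comparison. It measured 1260 to 3623 units (median 2149) with PBS and 6058 to 7907 (median 7052) with LPS. The groups did not overlap, and the change was 1.64 ± 0.15, or 3.13-fold (limma adjusted p = 2.83e-11). TRIB3, a pseudokinase that restrains the response, measured 1292 to 1754 units (median 1545) with PBS and 1470 to 3152 (median 2288) with LPS. Its rise of 0.50 ± 0.19 (adjusted p = 0.0354) came from part of the arrays: the 4 LPS arrays of set 1 were at 2905 to 3152 and the 4 of set 2 at 1470 to 1671, inside the PBS range. The call was lost under 6 of 16 alternatives (0.31 to 0.71, adjusted p up to 0.274), among them leaving out chip 1, 2 or 4.

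ASNS, asparagine synthetase, had the same shape and did not pass on its brighter probe, with 605 to 989 units (median 776) under PBS and 595 to 1778 (median 1189) under LPS and a change of 0.46 ± 0.21 (adjusted p = 0.0699). A dimmer ASNS probe rose by 0.43 (adjusted p = 0.0142). CHAC1, an enzyme that degrades glutathione, did not pass background on any of the 8 PBS arrays but did on 6 of 8 LPS arrays, at least 1.26-fold higher with LPS (limma adjusted p = 6.4e-05). That bound compares the LPS mean with a floor for each PBS array, as means of log2 values (measured means 6.86 and 6.24). The floor was that PBS array's lowest signal above background or the probe's own value, whichever was higher. The log2 change of CHAC1 was 1.21 within set 1 and 0.17 within set 2.

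**Figure D3:**
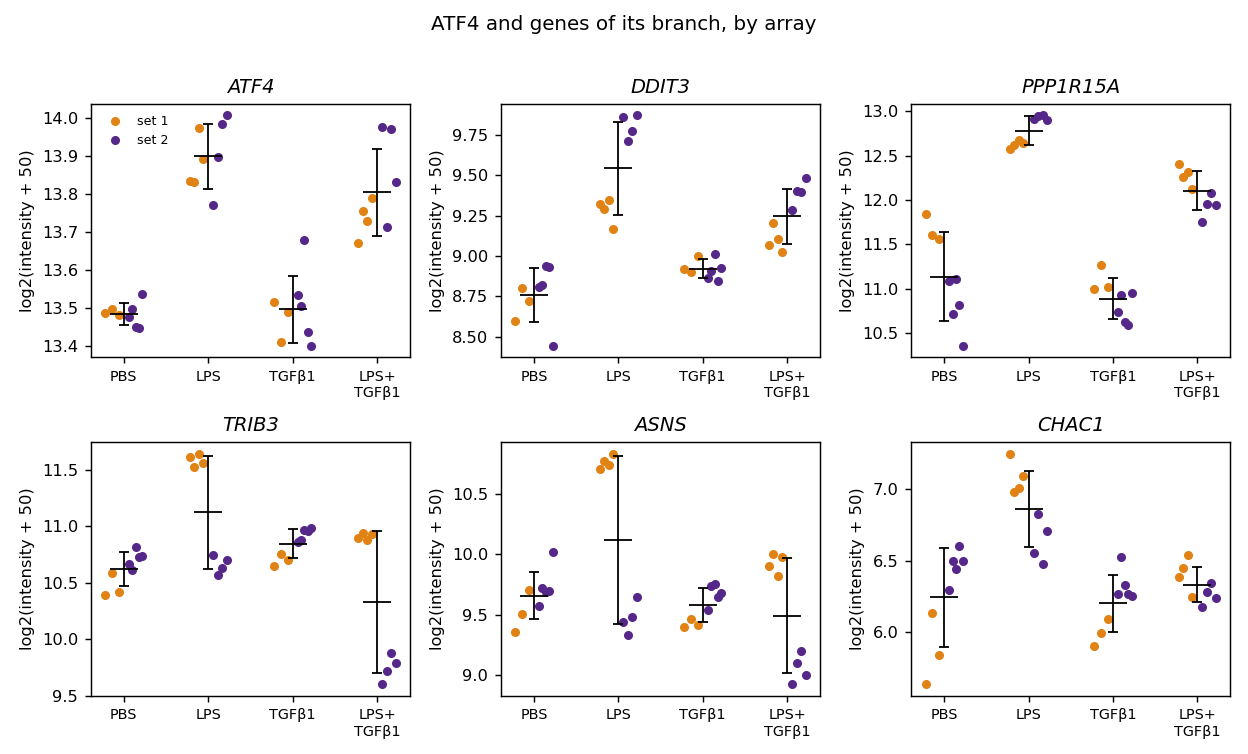
Each point is 1 array on a log2(intensity + 50) axis, by group, in orange for set 1 and purple for set 2; bars give the mean and SD of 8 arrays. TRIB3 and ASNS split by set within LPS and LPS+TGFβ1 but far less within PBS and TGFβ1, while ATF4 does not split that way.

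The cytosolic heat shock genes mostly did not pass with LPS. HSPH1, the HSP110 exchange factor, rose by 0.47 ± 0.12. HSPA1A, an inducible HSP70 gene, measured 430 to 634 units (median 597) with PBS and 233 to 541 (median 306) with LPS, and fell by 0.61 on the log2 scale (SE 0.17, limma adjusted p = 0.0041), with overlap. HSPA1B, its near-identical neighbour, measured 1314 to 2204 (median 1606) and 1236 to 2250 (median 1796), a change of 0.01. Because the 2 transcripts are nearly the same, how far each probe reads the other gene is uncertain. HSP90AA1, the inducible HSP90, measured 17570 to 20680 units (median 18541) with PBS and 17605 to 23366 (median 19465) with LPS, a change of 0.07 (95% interval -0.07 to 0.21). HSPA8 (0.22), DNAJB1 (-0.22) and HSF1 (0.09) did not pass; with the chip as a block DNAJB1 did (limma adjusted p = 0.021). The mitochondrial chaperonin genes HSPD1 (medians 11360 and 10821, change -0.10) and HSPE1 (0.13) did not pass either, nor at an unadjusted p under 0.05.

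With TGFβ1 alone few of these genes passed the test, and the largest change was a fall of XBP1. Of the 32 genes 3 fell and 0 rose, where 14.5% of all genes were called, 8.25% higher and 6.2% lower (limma); at an unadjusted p under 0.05, 2 were higher and 6 lower. The members' median was -0.03, as was that of all genes. With arrays brought to 1 median, HSPA5 rose (0.26) and HSP90AA1 did not pass, giving 1 higher and 2 lower.

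XBP1 measured 3129 to 3476 units (median 3348) on the TGFβ1 arrays, entirely below the PBS range given above. It fell by 0.96 on the log2 scale (SE 0.12, limma adjusted p = 9.16e-08), and the change on the 4 chips lay between -1.02 and -0.85. The second probe gave -0.88. The sets lay close together, 3377 to 3476 units in set 1 and 3129 to 3383 in set 2. HSPA1B measured 956 to 1513 units (median 1175) and fell by 0.52 (SE 0.12, limma adjusted p = 0.00141), under all 16 alternatives. HSP90AA1 measured 15253 to 18472 (median 15919), a fall of 0.21 that passed narrowly (adjusted p = 0.0441) and was lost without any 1 of the 4 chips. HSPA1A measured 280 to 539 units (median 433), a change of -0.40 that did not pass (adjusted p = 0.141) but had the same sign on all 4 chips and passed with chip as a block (adjusted p = 0.0465).

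None of the 9 ER chaperones, 4 lectin chaperones and isomerases or 4 ATF4-branch genes was called with TGFβ1; at an unadjusted p under 0.05 HSPA5, HYOU1 and DNAJB9 were. HSPA5 measured 913 to 1145 units (median 1018), a change of 0.25 (95% interval 0.05 to 0.46) that passed with the chip as a block (limma adjusted p = 0.0434). DNAJB9, at -0.26, passed with the replicate as a block (limma adjusted p = 0.0213) but not with the chip as one (0.101). PPP1R15A measured 1490 to 2418 units (median 1916, change -0.25), TRIB3 1556 to 1984 (median 1822, 0.23) and ASNS 624 to 815 (median 722, -0.08). CHAC1 was below background on all 8 TGFβ1 arrays. ATF4 measured 10756 to 13058 (median 11518) and DDIT3 410 to 467 (median 432), with changes of 0.01 and 0.17. HSPD1 was at a median of 10008, with a change of -0.19.

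**Figure D4:**
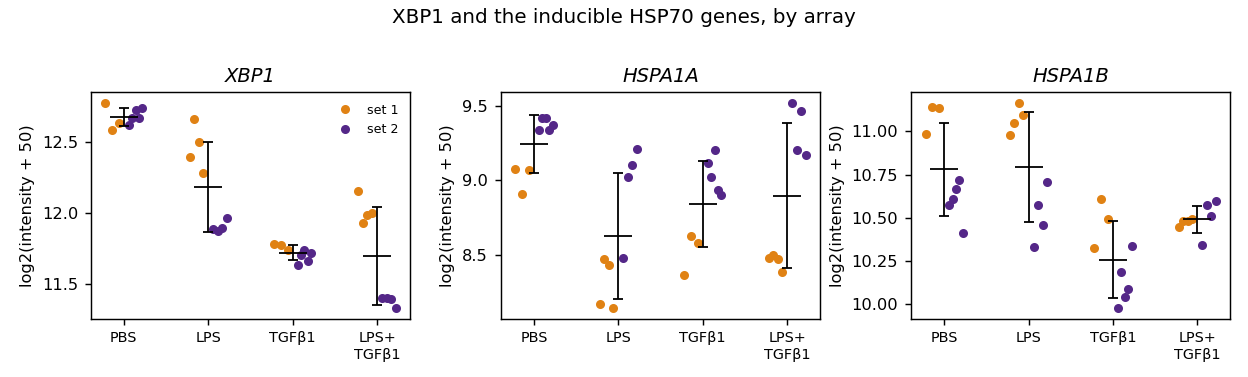
Each point is 1 array on a log2(intensity + 50) axis, by group, in orange for set 1 and purple for set 2; bars give the mean and SD of 8 arrays. XBP1 on all TGFβ1 arrays lay below all PBS arrays, and its LPS and LPS+TGFβ1 arrays split by set; set 1 lay low for HSPA1A and, except with LPS+TGFβ1, high for HSPA1B.

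When TGFβ1 was added to LPS, the ATF4-branch genes fell, and 8 of the 9 ER chaperones did not pass the test. Of the 32 genes, 6 fell and 1 rose in LPS+TGFβ1 compared with LPS, where 19.6% of all genes were called, 9.19% higher and 10.4% lower (limma). The members' median and the median of all genes were both -0.06. All 4 ATF4-branch genes fell, together with DDIT3 and XBP1; HSPA5 rose. This split depended on the scaling: with a common median HSPA5, CRELD2 and SEL1L rose and only TRIB3 and CHAC1 of the branch still passed, 3 higher and 2 lower, and after quantile normalization 0 rose and 6 fell (HSPA5 at 0.28).

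PPP1R15A measured 3391 to 5379 units (median 4354) with both stimuli, entirely below the LPS arrays. It fell by 0.68 on the log2 scale (SE 0.15, limma adjusted p = 0.000971), and its change was negative on all 4 chips, from -0.94 to -0.36. TRIB3 measured 727 to 1921 units (median 1366) and fell by 0.79 (SE 0.19, adjusted p = 0.00327), passing under all 16 alternatives. In each set its 4 arrays with both stimuli lay below the 4 with LPS: 1838 to 1921 against 2905 to 3152 in set 1, and 727 to 894 against 1470 to 1671 in set 2. ASNS measured 436 to 977 units (median 698) and fell by 0.63 (SE 0.21, adjusted p = 0.0293), a call lost without chip 1, 2 or 4 (adjusted p up to 0.116). CHAC1 was above background on 1 of 8 arrays with both stimuli and fell by 0.53 (SE 0.12, adjusted p = 0.00154), under all 16 alternatives.

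DDIT3 measured 471 to 665 units (median 558) and fell by 0.30 (limma adjusted p = 0.0241), a call lost without chip 1 or chip 3 and with array weights. ATF4, with 12991 to 16051 units (median 13937), changed by -0.09 and did not pass. XBP1 measured 2525 to 4509 units (median 3260) and fell by 0.48 from its LPS level (adjusted p = 0.00266). HSPA5 measured 948 to 1282 units (median 1137) and rose by 0.31 ± 0.10 (adjusted p = 0.0307), a call lost without chip 2, 3 or 4, with values of 0.22 to 0.47 on the 4 chips. The other 8 ER chaperones did not pass; the change was -0.12 for HYOU1 (95% interval -0.36 to 0.12) and 0.02 for MANF (-0.22 to 0.26). None of the 7 cytosolic heat shock genes passed, but HSPA1B, at -0.30, did with the chip as a block (limma adjusted p = 0.0193), as did the lectin chaperone CANX, at 0.28 (adjusted p = 0.0229); HSPA1A measured 285 to 684 units (median 419), HSPA1B 1249 to 1497 (median 1387), HSP90AA1 a median of 18147 and HSPD1 one of 10164.

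Set against PBS, most ER chaperones rose in the cells given both stimuli, while 1 of the 4 ATF4-branch genes did. Of 32 genes 14 rose and 2 fell, where 42.1% of all genes were called, 19.1% higher and 23% lower (limma); the members' median was 0.19 and that of all genes -0.04. After quantile normalization 10 rose and 3 fell. This comparison and that of LPS alone share the same PBS arrays. Of the 9 ER chaperones 7 rose, among them HYOU1 (0.85 ± 0.12), MANF (0.78 ± 0.12) and HSPA5 (0.42 ± 0.10, a call lost without chip 2). HSPA5 and DNAJC3 were at 0.94 and 0.59 within set 1 but at 0.08 and 0.04 within set 2. Within set 2 DNAJB11 was at 0.31, SDF2L1 at 0.35, MANF at 0.47, HYOU1 at 0.48 and CRELD2 at 0.49. PDIA4 (0.68) and CALR (0.56) rose as well. Of the ATF4 branch only PPP1R15A passed (0.97 ± 0.15), while TRIB3 was at -0.29, ASNS at -0.17 and CHAC1 at 0.09. The values of TRIB3, ASNS and CHAC1 average opposite changes, 0.45, 0.41 and 0.53 within set 1 and -0.96, -0.68 and -0.21 within set 2. CHAC1 was above background on 0 of 8 PBS arrays and on 1 of 8 arrays with both stimuli. XBP1 fell by 0.98 and HSPA1B by 0.29. HSPA1A, at -0.34, did not pass in the reported fit (limma adjusted p = 0.118). It passed with the chip, the set or the replicate as a block (limma adjusted p = 0.0457, 0.0141 and 0.00945). ATF6 (0.35), DDIT3 (0.49) and HSPH1 (0.41) rose. ATF4 rose by 0.32 on its brightest probe and by 0.35 on the next, but its dimmest probe fell by 0.56 (limma adjusted p = 0.0124). The mean over the 3 ATF4 probes, 0.04, did not pass (adjusted p = 0.769), nor did the brightest one after quantile normalization.

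LPS given on top of TGFβ1 raised 14 of the 32 genes and lowered 1, where 33.4% of all genes were called, 15.6% higher and 17.8% lower (limma). The members' median was 0.23 and that of all genes -0.01. After quantile normalization 10 rose and 1 fell, and with a common median 12 rose and 0 fell. PPP1R15A rose by 1.22, PDIA4 by 0.71, MANF by 0.61 and HYOU1 by 0.59. HSP90B1, not called with LPS alone, rose by 0.33. The difference between its LPS effects with and without TGFβ1, 0.25, did not pass (limma adjusted p = 0.284). TRIB3 was the gene that fell, by 0.52 (adjusted p = 0.0407), a call lost under 6 of 16 alternatives, among them no filter on dim probes and leaving out chip 1, 3 or 4. Its direction turned between the sets, with 0.21 within set 1 and -1.18 within set 2. With the chip as a block DNAJC3 (0.23) and HSPE1 (0.34) passed as well. XBP1 was at -0.02 (95% interval -0.26 to 0.22), a change that did not pass. That value averages opposite changes, 0.25 within set 1 and -0.31 within set 2.

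The difference between the LPS effect with TGFβ1 and without it was tested as an interaction, and 2 of the 32 genes passed, both lower, where 7.99% of all genes did, 3.19% higher and 4.8% lower (limma). For TRIB3 the LPS effect went from 0.50 without TGFβ1 to -0.52 with it, a difference of -1.02 ± 0.27 (adjusted p = 0.017). For DDIT3 it went from 0.79 to 0.32, a difference of -0.46 ± 0.13 (adjusted p = 0.0269). Differences kept their sign on all 4 chips for both genes. Neither call survived scaling to a common median, where HSP90B1 (0.37) and HSPA1A (0.77) passed instead, 2 higher and 0 lower. After quantile normalization 1 was higher and 3 lower. Both calls were lost without chip 1 or without chip 3, that of DDIT3 also without chip 2 and that of TRIB3 also without chip 4. XBP1, at 0.48 ± 0.16 (adjusted p = 0.0741), and HSPA1A, at 0.67 (adjusted p = 0.0984), did not pass but were positive on all 4 chips. Both passed with the chip as a block (limma adjusted p = 0.037 for XBP1 and 0.0259 for HSPA1A). HYOU1 was at -0.38 (limma adjusted p = 0.201). PPP1R15A was at -0.43 (limma adjusted p = 0.256), with 0.22 within set 1 and -0.94 within set 2.

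The LPS effect on many of these genes differed between chips. Chips 2 and 3 each held 2 arrays of every group and lay wholly in set 1 and set 2, so chip and set cannot be told apart there. In a limma fit of those 16 arrays the LPS effect differed in 13 of 32 genes, 2 higher and 11 lower on chip 3, where 20.6% of all genes were called. ASNS rose by 1.15 on chip 2 and stood at -0.30 on chip 3, a difference of -1.45 ± 0.14 (adjusted p = 1.26e-06). TRIB3 went from 1.08 to -0.11, a difference of -1.20 ± 0.15 (adjusted p = 1.39e-05). PPP1R15A was the opposite, with 1.07 on chip 2 and 2.04 on chip 3, a difference of 0.97 ± 0.18 (adjusted p = 0.00111). ATF4 itself had LPS effects of 0.41 and 0.47.

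Of the ER genes, MANF (-0.78), CRELD2 (-0.76), PDIA6 (-0.68), DNAJC3 (-0.65), HSPA5 (-0.55) and DNAJB11 (-0.49) had a smaller LPS effect on chip 3, and EDEM1 a larger one (0.66). CHAC1 (-0.82) and HSPH1 (-0.40) were lower too. For XBP1 the difference (-0.79) was a larger fall, with -0.03 on chip 2 and -0.81 on chip 3. HYOU1 rose on both, by 1.20 and 0.80, and its difference of -0.40 ± 0.19 did not pass. Part of this lay in the controls: PBS arrays of set 1 held 575 to 636 units of HSPA5 and those of set 2 952 to 1077, while LPS arrays held 889 to 973 and 823 to 969. For TRIB3 and ASNS more of it lay in the LPS arrays. ASNS with LPS was at 1624 to 1778 units in set 1 and 595 to 753 in set 2, against PBS ranges of 605 to 787 and 711 to 989. TRIB3 with LPS was at 2905 to 3152 and 1470 to 1671, against PBS ranges of 1292 to 1489 and 1513 to 1754. Because the sets were drawn from all probes of these arrays, their values are a description.

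**Figure D5:**
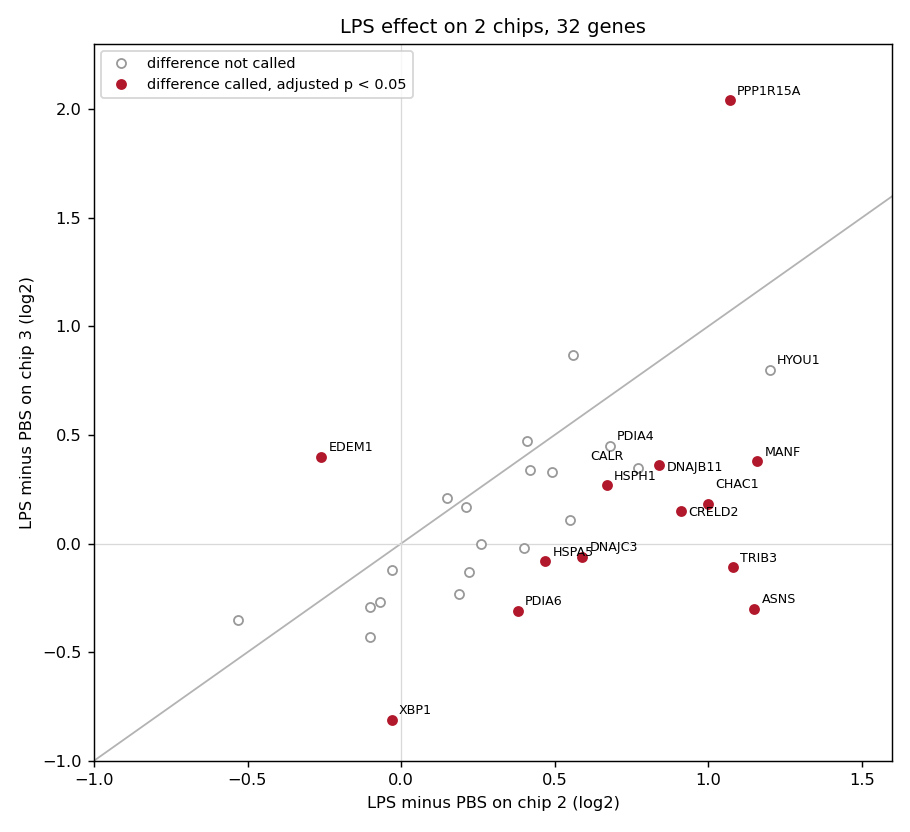
Each point is 1 gene, with its LPS effect (log2, 2 LPS arrays minus 2 PBS arrays) on chip 2 along x and on chip 3 along y; the grey diagonal marks equal effects. Filled points are the 13 genes whose difference passed; ASNS and TRIB3 lie farthest below the diagonal and PPP1R15A farthest above it.

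The effect of adding TGFβ1 to LPS differed between those chips in 2 of 32 genes, ASNS (0.59) and HSPA1B (0.65), both higher on chip 3, where 8.75% of all genes were called. TRIB3 fell by 0.67 on chip 2 and by 0.80 on chip 3, CHAC1 by 0.50 and 0.34, and ASNS by 0.84 and 0.26. The levels themselves, averaged over the 4 groups, differed between the chips in 22 of 32 members, 9 higher and 13 lower on chip 3, where 63.1% of all genes did. HSPA1A was higher (0.60) on chip 3, whereas HSPA8 was lower (-0.56).

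Other genes of the same pathways, grouped in lists of their own, give the setting for the LPS comparison, in which 44.4% of all genes were called. Of 21 other ATF4 targets tested, 11 rose and 2 fell with LPS (median 0.41), with ATF3 at 2.78 ± 0.25 and WARS1, a tryptophan tRNA ligase also induced by interferon, at 2.77 ± 0.28. Of 6 sensors and kinases tested, EIF2AK2 (PKR), an interferon-induced eIF2α kinase, rose by 2.17 ± 0.17, and 2 fell, EIF2AK1 by 0.41. Of 12 other ER degradation genes 7 rose and 1 fell, with NPLOC4 at 0.57 and VCP, the segregase that pulls proteins from the ER, at 0.51. Of 11 other folding and redox genes 3 rose and 3 fell, with ERP29 at -0.92 and FKBP2 at 0.59. Of 16 translocon and glycosylation genes 2 rose and 5 fell, a share called of 43.8%, near that of all genes, with SEC61B at 0.54 and SEC62 at -0.76. Of 19 other heat shock genes 4 rose and 2 fell, a share of 31.6%, below that of all genes, with HSPB1 at -0.82 and HSPA4L at -0.78. The share was 61.9% for the other ATF4 targets, 50% for the sensors, 66.7% for the degradation genes and 54.5% for the folding and redox genes.

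With TGFβ1 alone, 3 of the 21 other ATF4 targets rose and 1 fell, or 19%, where 14.5% of all genes were called. NUPR1, a stress-induced chromatin protein, rose by 2.04 ± 0.17 and DDIT4, an inhibitor of mTORC1 signalling, by 1.03 ± 0.16, though ATF4 and its 4 branch members did not pass. When TGFβ1 was added to LPS, 2 of these 21 rose and 5 fell, or 33.3% against 19.6% of all genes; WARS1 fell by 1.29 and NUPR1 rose by 1.38. In the other lists, TGFβ1 raised EDEM2 (0.49), a mannosidase of ER degradation, and QSOX1 (0.42), a sulfhydryl oxidase. It lowered UBE2J1 (-0.58), an ER ubiquitin-conjugating enzyme, HSPA4L (-0.68), CCT8 (-0.42), STT3A (-0.54) and MBTPS1 (-0.26), the protease that first cuts ATF6.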

How the data were processed

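RNA of THP-1 cells was measured on 32 Illumina HumanRef-8 arrays, 8 per treatment, on 4 chips with 2 arrays of each treatment. Treatments and replicate numbers came from the sample titles and chips from the labels. The deposited table of linear intensity values was used, 1 column per array. Per the submitters' processing notes BeadStudio 3.2 was used, with its role not stated. How the authors corrected the background and normalized is not given in the sources used here. Column medians were 34.5 to 59.3, upper quartiles 345 to 381 and the lowest value -35.4, so whether and on what factor the values were centred is unknown. A further deposited table of non-normalized values has 64 columns whose names match no sample; it was not used.

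Intensities were set to log2(intensity + 50), which understates the change of dim genes, and probes in the lowest 25% by mean log2 were left out. Gene symbols came from the platform annotation: 21826 of 24518 probes had 1 symbol, 0 several and 2692 none. A probe was above background on an array where it exceeded a level of 26.9 to 57.1 intensity units, set 3 SDs (of the values below the mode) above the mode of the dim signals. Each comparison used limma 3.58.1 under R 4.3.3 (group means over all 32 arrays, two-sided, Benjamini-Hochberg adjusted p under 0.05 over all probes) in 6 comparisons, and the fit was tested on simulated data. Errors of log2 changes are standard errors and the number of arrays sets the precision. The interaction is the LPS effect with TGFβ1 minus that without it. Chips 2 and 3 were compared in a fit of their own.

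The members and all lists were chosen with earlier results of these data known. The naming rule gave values in every group for HSPA5, XBP1, DDIT3, ATF4, HSPA1A, HSPA1B, HSP90AA1, HSPD1, PPP1R15A, ASNS and TRIB3 and for members changed by at least 1 on the log2 scale, and named the 2 largest calls of each further list with LPS and with TGFβ1. Alternatives were another offset, no filter, quantile and median scaling, chip, replicate and set as blocks, single chips and sets, each chip left out, array weights, only the groups compared, and the mean over a gene's probes. Leaving out PBS replicate 8 or replicate 7 was chosen after seeing the data. Promoter sequences are RefSeq's (GRCh38.p14).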

Additional observations from a re-analysis of the deposited data

Results flagged for a closer look

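Of 128 groups of 8 arrays, 4 for each of the 32 genes, 3 (2.34%) had 1 array far from its nearest neighbour compared with the group's range, where chance gives about 1 in 20. DNAJB9 was lowest in TGFβ1 replicate 2, at 211 intensity units against a group median of 345. CALR was lowest in LPS+TGFβ1 replicate 7, at 1550 against a median of 2899. HSPE1 was lowest in PBS replicate 8, at 838 against a median of 1784; that array also stood apart on the second residual component.

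The LPS effect differed by the presence of TGFβ1, by limma's interaction test, in DDIT3 (-0.46, adjusted p = 0.0269, negative on 4 of 4 chips) and in TRIB3 (-1.02, adjusted p = 0.017, negative on 4 of 4 chips). Over the 15 alternatives the adjusted p ranged from 0.00282 to 0.448 for DDIT3 and from 8.43e-06 to 0.0934 for TRIB3.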

How the results depend on the processing

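Of the members called, 10 of 17 with LPS, 2 of 3 with TGFβ1, 9 of 16 with both against PBS, 2 of 7 with both against LPS and 8 of 15 with both against TGFβ1 passed under all 16 alternatives that kept at least 3 chips; neither of the 2 interaction calls passed under all 15. A direction is counted as reversed where its sign turned and it passed in the reported fit, under the alternative or in both; under alternatives that kept at least 3 chips this happened for 0 members. Values that passed in neither did change sign there, such as HSP90B1 with LPS (0.08, but -0.19 after quantile normalization) and HSF1 with LPS (0.09, but -0.26 with array weights). The normexp correction of the non-normalized table was not run, because its columns name no sample, and the interaction could not be fitted on fewer groups. With 8 arrays per group the 95% intervals of HYOU1 spanned 0.73 to 1.21 with LPS, and dim probes (CHAC1, PDIA3, SEL1L) are limited by background. The sets were drawn from these arrays, so p-values that use them can be too small.

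The labels give no meaning to the replicate numbers beyond a shared chip, and the arrays were not treated as paired, because the lowest correlation between arrays numbered 7 was -0.2. For the other 7 numbers same-numbered arrays deviated together (lowest correlations 0.13 to 0.34) and lay in the same set. Arrays numbered 7 were in both sets. Of the 32 arrays, 15 correlated best with an array of their own number. These values are a hint of pairing from the data. The replicate block lost 0 calls and gave 21 with LPS (adding ASNS, SEL1L, HSPA8 and DNAJB1), 5 with TGFβ1 (DNAJB9, HSPA1A), 18 with both against PBS (DNAJB9, HSPA1A), 10 with both against LPS (CANX, HSPA1B, HSPA8), 17 with both against TGFβ1 (DNAJC3, HSPA1B) and 4 in the interaction (XBP1, HSPA1A). The chip as a block added 11 calls over the 6 comparisons and lost 0.

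Member calls that moved beyond 1.5 times were these. LPS with PBS had 3 within chip 1 and 2 within chip 4. TGF with PBS had 5 with the chip as a block, 6 with the set as a block, 6 with array weights, 8 within chip 2, 10 within set 1 and 7 within set 2, and 0 within chip 1 or chip 4 (2 each at an unadjusted p under 0.05, limma). LPS+TGF with PBS had 1 within chip 1, 27 within chip 2, 2 within chip 4 and 25 within set 1. LPS+TGF with LPS had 12 with the set as a block, 13 within set 2, 13 with array weights, and 0 within chip 1 or chip 4 (2 each unadjusted). LPS+TGF with TGF had 0 within chip 1 (6 unadjusted) and 2 within chip 4. The interaction had 4 with quantile normalization, 4 with the chip as a block, 5 with the set as a block, 5 with array weights, 5 within chip 3, 7 within set 1, 6 within set 2, 1 without chip 2 or chip 4, 0 without chip 1 (7 unadjusted) or chip 3 (5 unadjusted), and 0 within chip 1 or chip 4 (1 each unadjusted). Single chips hold 2 arrays per group.

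Direction reversed as follows, on the log2 scale, and the cause was not tested. With LPS against PBS, PDIA6 was 0.38 within chip 2, EDEM1 -0.26 within chip 2 and -0.29 within set 1, TRIB3 -0.11 within chip 3 and -0.05 within set 2, and ASNS -0.30 within chip 3 and -0.26 within set 2. With both against PBS, TRIB3 was 0.41 within chip 2 and 0.45 within set 1, ASNS 0.31 and 0.41, SEL1L 0.37 and 0.37, EDEM1 -0.28 within chip 2, HSPD1 0.20 within set 1 and CHAC1 -0.21 within set 2. With both against TGFβ1, TRIB3 was 0.18 within chip 2 and 0.21 within set 1, ASNS 0.47 and 0.50, XBP1 0.25 within set 1 and HSPD1 -0.24 within set 2. In the interaction, CRELD2 was -0.45 within set 1.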
